A study of Mus musculus and synthetic construct with 32 samples.

Results

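The cytoplasmic RNA decay machinery was taken as 51 genes chosen by name, out of 22750 gene names with sense exon reads in any of the authors' 4 mouse tables. The set held 7 decapping genes, 7 LSM ring genes, 10 CCR4-NOT genes, 4 BTG/TOB adaptors, 3 genes of the PAN2-PAN3 and PARN deadenylases, 7 nonsense-mediated decay genes and 13 genes of the exosome and its DIS3-type nucleases. The label holds loosely for a few of them, since Exosc10 and Dis3 are known mainly as nuclear exosome nucleases and several LSM proteins also serve in the nucleus.

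Most cytoplasmic mRNAs are degraded after their poly(A) tail has been shortened by the PAN2-PAN3 and CCR4-NOT deadenylases. The deadenylated RNA is then decapped by DCP2, helped by the LSM ring and PATL1, and digested from its 5′ end by XRN1, or it is digested from its 3′ end by the exosome. Nonsense-mediated decay uses the helicase UPF1 to mark translated RNAs with premature stop codons for the same enzymes. YTHDC2 is an RNA helicase with a YTH domain, the fold that reads N6-methyladenosine (m6A) in RNA, and it is known to bind XRN1 and to be needed for meiosis in germ cells.

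All mice were of the C57BL/6J background. Ythdc2 knockouts came from a line without exon 7 and from another with a stop codon cassette inserted in exon 7, and the labels do not say which line gave a library. Total RNA was compared between 3 knockout and 3 heterozygous testes at postnatal day 12 (P12), between 2 knockout and 2 heterozygous ovaries at P0, and at P8 between 2 knockout testes and 1 wild-type and 1 heterozygous testis. The m6A comparison used polyadenylated RNA of wild-type P8 testis, fragmented and immunoprecipitated with an antibody to m6A, as 1 immunoprecipitate library against 1 input library. Nothing in the labels says whether replicates were separate animals, so where a group has replicates, adjusted p-values measure the spread between libraries, which may be technical. The m6A comparison, and that of heterozygote with wild type at P8, had 1 library on each side. How the authors estimated a spread for these is not stated. The knockout was of the whole animal, and the tissue was the whole gonad.

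Every mean count, log2 fold and adjusted p below is a value from the authors' deposited tables, which give no value per library, so that no SD or range of replicates can be stated. A log2 fold is knockout over control, or immunoprecipitate over input, and a gene was called at an adjusted p below 0.05. The column headers for P12 and P8 total RNA also carry the words IP and input, although the labels list total RNA. These columns were read as the genotype comparison that they name, and this reading could not be checked. Summed over every feature of a table, the mean normalized counts came to between 2.38e+07 (P0 ovary) and 4.22e+07 (P8 testis). All 51 genes were listed in sense exons in each table with a mean count of at least 10 and an adjusted p. Their mean counts ran from 94.6 for Lsm5 to 10783 for Cnot1 at P12, from 20.7 for Lsm5 to 4498 for Cnot1 in the ovary, and from 88.2 for Lsm5 to 13141 for Cnot1 at P8. In the m6A table, which gives 1 mean count over its libraries of all ages, immunoprecipitate and input, they ran from 102 for Lsm7 to 10439 for Smg1. These levels depend on transcript length and are not compared between genes. Sense introns were listed for 50 of the 51, the exception being Exosc6, and the intron mean count lay below 10 for Tob1 in the ovary (9.08) and Btg2 in the m6A table (2.43).

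The targeted gene was checked first. In the authors' deposited tables Ythdc2 exons fell by 1.29 at P12 (DESeq2 adjusted p = 9.87e-25), while their folds of -0.43 in the P0 ovary (adjusted p = 0.584) and of -0.50 against the wild type at P8 (adjusted p of 1) did not pass. Reads were counted per gene, so a lesion within 1 exon is not checked by them. At P12 4 of 5 spermatocyte markers fell, with a median fold of -0.69 over the 5. Of the germ cell and spermatogonia markers 0 of 4 each were called there, with medians of -0.05 and -0.04. Among 4 tested Leydig cell markers 1 was higher, with a median of 0.22. In the P0 ovary 3 of 5 oocyte markers fell, with a median of -1.41, and 2 of 4 germ cell markers fell, with a median of -0.78. Of the spermatogonia markers 1 of 4 fell there, around a median of 0.14, and 0 of 5 spermatocyte markers were called. At P8, 3 of 6 spermatid markers were lower in the knockout than in the heterozygote and 0 of 6 than in the wild type. Between the heterozygote and the wild type, 1 library each, the 5 spermatid markers with a mean count of at least 10 had a median fold of 0.45. The wild type was planned as the main control at P8. In such whole-gonad RNA, fewer cells of a type and less RNA per cell cannot be told apart.

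In P12 testis the decay machinery kept close to the heterozygous level, with 1 of 51 genes called. Dcp2, the catalytic subunit that removes the mRNA cap, fell by 0.38 on the log2 scale, to 0.767 of the heterozygous level (DESeq2 adjusted p = 0.0376, mean count 2202) in the authors' deposited table. No member was called higher. Over all genes tested, 0.756% were called lower and 0.093% higher, so a single call among 51 genes is near that background. The median fold of the 51 was -0.04, against 0.01 over all genes with a mean count of at least 10. Of the 51 folds 31 lay below 0 (60.8%), beside 47.9% of all those genes. Their SD across genes was 0.131, against 0.155 over all genes.

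By complex at P12, 6 of the 7 decapping genes lay below 0, with a median of -0.11. Above 0 was Ddx6 alone, the DEAD-box helicase that activates decapping, at 0.01. The scaffold genes Patl1 and Edc4 had folds of -0.22 and -0.19, neither called. Among the LSM ring genes, whose proteins bind the shortened 3′ ends, folds went from -0.15 for Lsm2 to 0.13 for Lsm5 around a median of 0.08. Among the CCR4-NOT genes they went from -0.26 for Cnot3, a core subunit, to 0.08 for Cnot2, its partner in the same module. The 4 deadenylase subunits Cnot6, Cnot6l, Cnot7 and Cnot8 stood at -0.02, -0.16, 0.06 and -0.04. None of these passed the test.

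The BTG/TOB adaptors, which bring CCR4-NOT to poly(A)-bound mRNA, ranged at P12 from -0.17 for Tob2 to 0.18 for Btg1 in the authors' deposited table. How reads were divided between Btg1 and its copies Btg1b and Btg1c is not given in the sources used here. The other deadenylases ranged from -0.11 for Pan2, the catalytic subunit of PAN2-PAN3, to 0.16 for Parn. Of the nonsense-mediated decay genes 6 of 7 lay below 0, from -0.34 for the helicase Upf1 (adjusted p = 0.262) to 0.05 for Upf3a, with a median of -0.10. Upf1 had the lowest adjusted p of the members after Dcp2. Of the exosome genes 8 of 13 lay above 0, with a median of 0.05. They went from -0.23 for Dis3l, the cytoplasmic DIS3-type nuclease, to 0.17 for Dis3. Not 1 gene of these 4 groups was called.

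**Figure D1:**
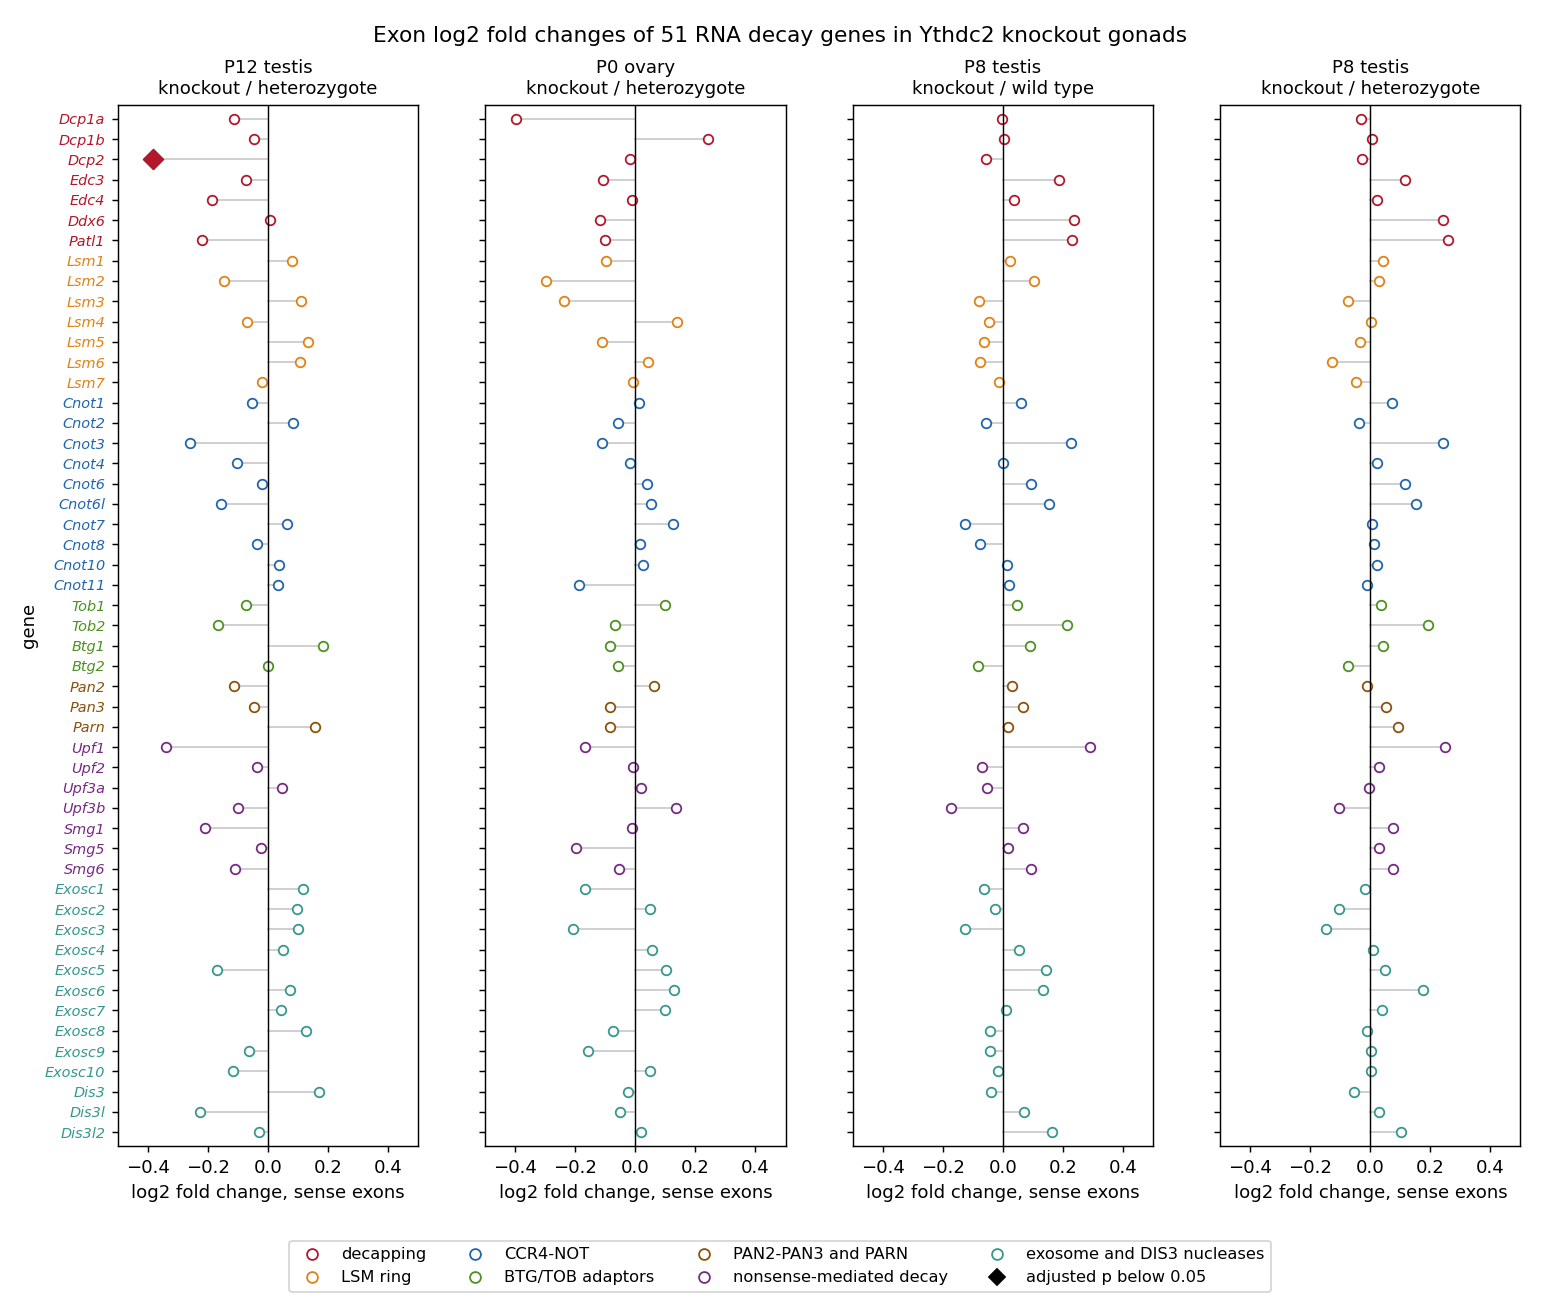
Exon log2 folds of the 51 RNA decay genes (rows, coloured by complex) in the 4 knockout comparisons of the authors' deposited tables. Open circles were not called, the filled diamond marks an adjusted p below 0.05, and the x axes are on the same scale. Dcp2 at P12, at -0.38, is the single diamond.

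The fall of Dcp2 was seen in exons and not in introns. At P12 its exon fold was -0.38 and its intron fold -0.00 in the authors' deposited table, a difference of -0.38. This was the lowest exon minus intron difference of the 50 members with both values, and 62 of 13332 genes (0.465%) lay at or below it. Patl1 was close behind at -0.36, with exons at -0.22 and introns at 0.14, neither called. Dcp2 was singled out by its low exon fold, which enters the difference, so this share is a description and not a test. Exons follow mainly spliced RNA and introns unspliced RNA. The same difference for Upf1 was smaller, since its introns stood at -0.26 (adjusted p = 0.571) beside exons at -0.34. For Btg2, a BTG/TOB adaptor, exons stood at -0.00 and introns at -0.25, the highest difference of the members at 0.24. Over the 50 members the median exon minus intron difference was -0.04, against -0.01 over all genes. No test of these differences was possible without values per library.

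Dcp2 did not stand out in the other knockout tables of the authors. Its deposited exon fold was -0.02 in the P0 ovary, -0.06 against the wild type at P8 and -0.03 against the heterozygote at P8. It lies on chromosome 18, at 44380500 to 44424969 of GRCm38, 403 kb from Ythdc2 at 44827730 to 44889720, the gene that was targeted. Of the other genes measured within 1 Mb on either side of Dcp2, 6 had a mean count of at least 10 at P12, and 0 of them were called. Their folds went from -0.02 to 0.21, with a median of 0.02. Within 5 Mb, 33 such genes went from -0.32 to 0.28, with 0 called. The part of its position in the Dcp2 result was not tested, and neither was that of the spermatocyte markers that fell in the same libraries.

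**Figure D2:**
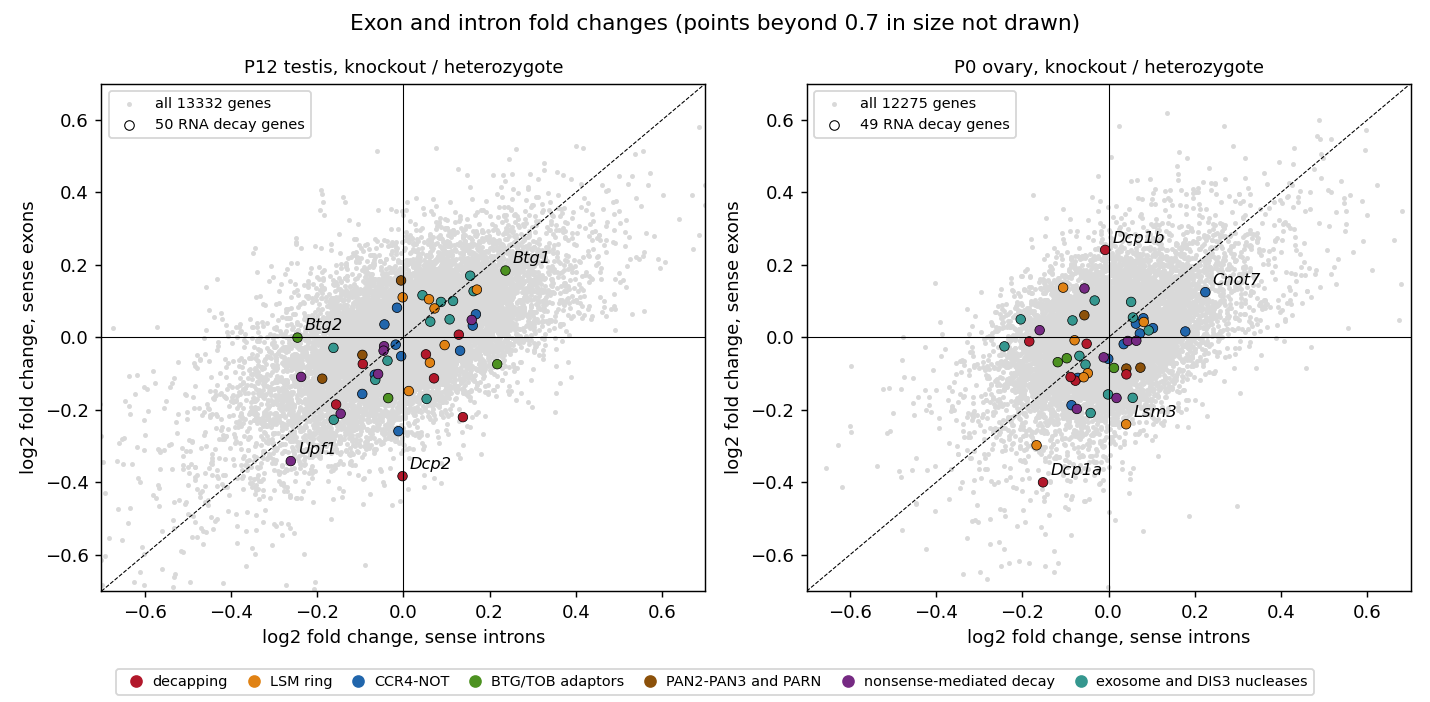
Exon fold (y axis, log2) against intron fold (x axis, log2) in the P12 testis and P0 ovary tables, with grey points for all genes of mean count 10 or more in both and large points for the decay genes, coloured by complex. The dashed line marks equal folds. Dcp2 sits at -0.38 in exons and -0.00 in introns at P12.

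In introns no member was called in any knockout comparison. The background in introns was 0.929% called lower and 0.0937% higher at P12, 0.142% and 0.071% in the ovary, and 0.00542% each way against the wild type at P8. Against the heterozygote at P8 it was 0.0162% lower and 0% higher, and between the heterozygote and the wild type 0.0108% higher and 0% lower. Member intron folds in the deposited tables reached from -0.26 (Upf1) to 0.24 (Btg1) at P12 and from -0.24 (Dis3) to 0.22 (Cnot7) in the ovary. Against the wild type at P8 they reached from -0.23 (Cnot7) to 0.30 (Smg6, the endonuclease of nonsense-mediated decay). Across members, exon and intron folds of the same comparison had a Pearson r of 0.52 at P12 (n = 50 genes), 0.26 in the ovary (n = 49) and 0.51 against the wild type at P8 (n = 50). Over all genes the values were 0.65, 0.51 and 0.46. The points of each correlation share their libraries, and genes are not independent replicates.

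In the P0 ovary 0 of 51 members were called, beside 0.435% of all genes called lower and 0.1% called higher by the authors' DESeq2 adjusted p. The authors deposited no unadjusted p for these genes. The median fold was -0.02, against 0.00 over all genes, with an SD across genes of 0.121 against 0.144. Of the 51 folds 31 lay below 0 (60.8%), beside 48.2% of all genes. The widest spread was in the decapping group and between paralogs. Dcp1a, an activator of DCP2, stood at -0.40 (adjusted p = 0.515), the lowest value of the 51, and Dcp1b at 0.24, the highest. A RefSeq gene, Gm35566, overlaps Dcp1a on the same strand.

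Other groups lay nearer to 0 in the ovary table of the authors. LSM ring genes ranged from -0.30 for Lsm2 to 0.14 for Lsm4, with a median of -0.10. CCR4-NOT genes ranged from -0.19 for Cnot11 to 0.12 for Cnot7, around a median of 0.01. The adaptors Btg1 and Tob1 marked the ends of their group at -0.08 and 0.10, and Pan3 and Pan2 of theirs at -0.09 and 0.06. In nonsense-mediated decay, Smg5, which helps to recruit decay enzymes to phosphorylated UPF1, had -0.20 and Upf3b, an exon junction adaptor, 0.14. Exosome genes went from -0.21 for Exosc3, an RNA-binding cap subunit, to 0.13 for Exosc6, a subunit of the ring. The oocyte and germ cell markers above moved in these same libraries, and their part in the members' folds was not tested.

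At P8, 0 of 51 members were called against the wild type or against the heterozygote, and the DESeq2 adjusted p of each was 1 in the authors' deposited table. Few genes were called at all, 0.03% higher and 0.005% lower against the wild type, and 0.005% and 0.04% against the heterozygote. Both comparisons share the 2 knockout libraries, and each control is a single library, so neither gives a measure of spread among controls. The median fold was 0.02 against either control, beside 0.00 over all genes. Folds went from -0.17 for Upf3b to 0.29 for Upf1 against the wild type, and the corresponding values against the heterozygote were -0.10 and 0.25. Between the heterozygote and the wild type, 1 library each, member folds went from -0.13 for Cnot7 to 0.09, with 0 called (background 0.01% higher and 0% lower).

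The higher values at P8 came from genes of several complexes. Patl1, Ddx6 and Cnot3 stood at 0.23, 0.24 and 0.23 against the wild type and at 0.26, 0.24 and 0.24 against the heterozygote in the deposited table, none called. Tob2, an adaptor, stood at 0.21 and 0.19, and Btg2 at -0.08 and -0.07. Dis3l2, a nuclease that acts without the exosome on uridylated RNA, stood at 0.17 and 0.10, while Exosc3 had -0.13 and -0.15. The other ends of the groups against the wild type were Dcp2 at -0.06, Lsm3 at -0.08, Lsm2 at 0.10, Cnot7 at -0.13, Parn at 0.02 and Pan3 at 0.07.

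Members that lay lower at P12 tended to lie higher at P8 in the authors' deposited folds. Upf1 stood at -0.34 at P12 and 0.29 against the wild type at P8, and Cnot3 at -0.26 and 0.23. Signs were opposite for 32 of 51 members, a count whose share over all genes was not computed. The Pearson r was -0.46 and the Spearman rho -0.46 (n = 51 genes). Over the 11753 genes in the members' range of counts the values were -0.30 and -0.33, so an inverse relation was also present across genes at large. P12 and P8 share no libraries, but all points of a comparison share theirs. Age differs between P12 and P8, and so does control genotype where the wild type is used at P8. With the heterozygote as control at both ages, the Pearson r was -0.44 and the Spearman rho -0.42 (n = 51 genes). Signs were then opposite for 36 of 51 members. Over the 11753 genes the values were -0.33 and -0.37. The knockout libraries at P8 are the same with either control, and the part of age was not tested. P12 and the ovary had no such relation among members, with an r of 0.01. In all of P12, the ovary and P8 against the wild type, 6 members lay below 0 (Dcp1a, Dcp2, Lsm7, Btg2, Upf2 and Exosc9). Above 0 in all 3 lay 4 (Cnot10, Exosc4, Exosc6 and Exosc7). The shares of all genes with such signs were not computed, so these counts are not read as a trait of the members.

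The m6A immunoprecipitation spread the decay genes widely, with an SD of 0.983 across the 51 log2 folds, beside 1.11 over all genes. In the deposited values for P8, 10 of 51 members were higher in the immunoprecipitate than in the input, 21 were lower and 20 were not called. That is 19.6% higher and 41.2% lower, beside 26.9% and 26.3% of all genes. Among the 12308 genes in the members' range of mean counts, 31.2% were called higher and 32.2% lower. The median member fold was -0.47, against -0.01 over all genes, and folds ran from -1.74 to 2.42. This comparison has 1 library on each side and hence no replicate check. Past a log2 fold of 1 in size, with no p, lay 6 members on the higher side and 15 on the lower, which is 11.8% and 29.4% beside a background of 22.6% and 19.8%. A log2 fold here is relative to the other transcripts of the library and is not the share of a transcript that carries m6A.

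Members higher in the m6A immunoprecipitate were found in each group but CCR4-NOT and the LSM ring. Of the BTG/TOB adaptors 3 of 4 were higher in the immunoprecipitate in the authors' deposited table, beside 26.9% of all genes. In the members' range of counts the share was 31.2%. Btg1 had a fold of 1.76, Tob1 1.21 and Tob2 0.99, and Btg2 stood at -0.36, not called. In the decapping group Ddx6 had 1.44 and Edc3, an enhancer of decapping, 0.98, both called higher, whereas Edc4 at -1.48 and Patl1 at -1.32 were called lower. Dcp1a, Dcp2 and Dcp1b, at 0.24, 0.24 and 0.03, were not called. Pan3, which anchors PAN2 to poly(A)-bound mRNA, had 1.26, while Parn had -0.82 and was called lower and Pan2 had -0.58 and was not called. In nonsense-mediated decay Upf2, which bridges UPF1 and UPF3, had 1.19 and Upf3a had 0.64, both called higher. The other 5 of that group were not called and lay between -0.21 for the kinase Smg1 and 0.40 for Smg6, with Upf1 at -0.01.

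CCR4-NOT transcripts lay on the other side, with 7 of 10 genes lower in the m6A immunoprecipitate and 0 higher in the deposited table. Over all genes 26.3% were called lower and 26.9% higher, and in the members' range of counts 32.2% and 31.2%. Cnot1, the scaffold that holds the complex together, had the lowest fold of all 51 members at -1.74, or 0.299 of the input. Cnot10 followed at -1.67, and its partner Cnot11 had -0.62. All 4 deadenylase genes were called lower, Cnot6 at -1.46, Cnot6l at -1.17, Cnot8 at -0.81 and Cnot7 at -0.58. Cnot3 at -0.50, Cnot2 at -0.04 and Cnot4, a ubiquitin ligase, at 0.10 were not called.

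The LSM ring and the exosome had more genes called lower than higher in the authors' m6A table. The background in the members' range of counts was 32.2% lower and 31.2% higher, and the LSM count is not far from it. Of the LSM genes 3 of 7 were called lower, Lsm5 at -1.14, Lsm6 at -1.11 and Lsm4 at -0.77, and 0 were called higher. The others lay between -1.01 for Lsm7 and 0.22 for Lsm3. Of the 13 exosome and nuclease genes 8 were called lower. The ring subunits Exosc9, Exosc8 and Exosc7 stood at -1.62, -1.55 and -1.52, Exosc5 at -0.88 and the cap subunit Exosc3 at -0.65. The nuclease genes Dis3, Dis3l2 and Exosc10 stood at -1.22, -1.12 and -1.12. Dis3l at 0.22, Exosc1 at -0.21 and Exosc2 at -0.47 were not called.

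Exosc6 was the extreme among the ring subunits and among all 51 genes. Its deposited m6A fold was 2.42, or 5.36 times the input (mean count 920). Exosc6 lies on chromosome 8 at 111056339 to 111057664 of GRCm38, a span of 1.326 kb, and has no intron listed. Exosc4, another ring subunit, had 0.81 and was also called higher. RefSeq places Oplah over Exosc4, Ccna2 over Exosc9 and Vps37a over Cnot7, with strands not known from the tables at hand, and how such reads were counted is not given in the sources used here. The 10 members called higher had a median gene span of 11.9 kb, from 1.326 kb to 122 kb, and the 21 called lower a median of 23.1 kb, from 3.637 kb to 348 kb. The ranges overlap, and over the 51 members the Spearman rho of m6A fold with span was -0.01 (with mean count 0.27), beside -0.11 (0.00) over 11784 genes. Span includes introns and is not transcript length.

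**Figure D3:**
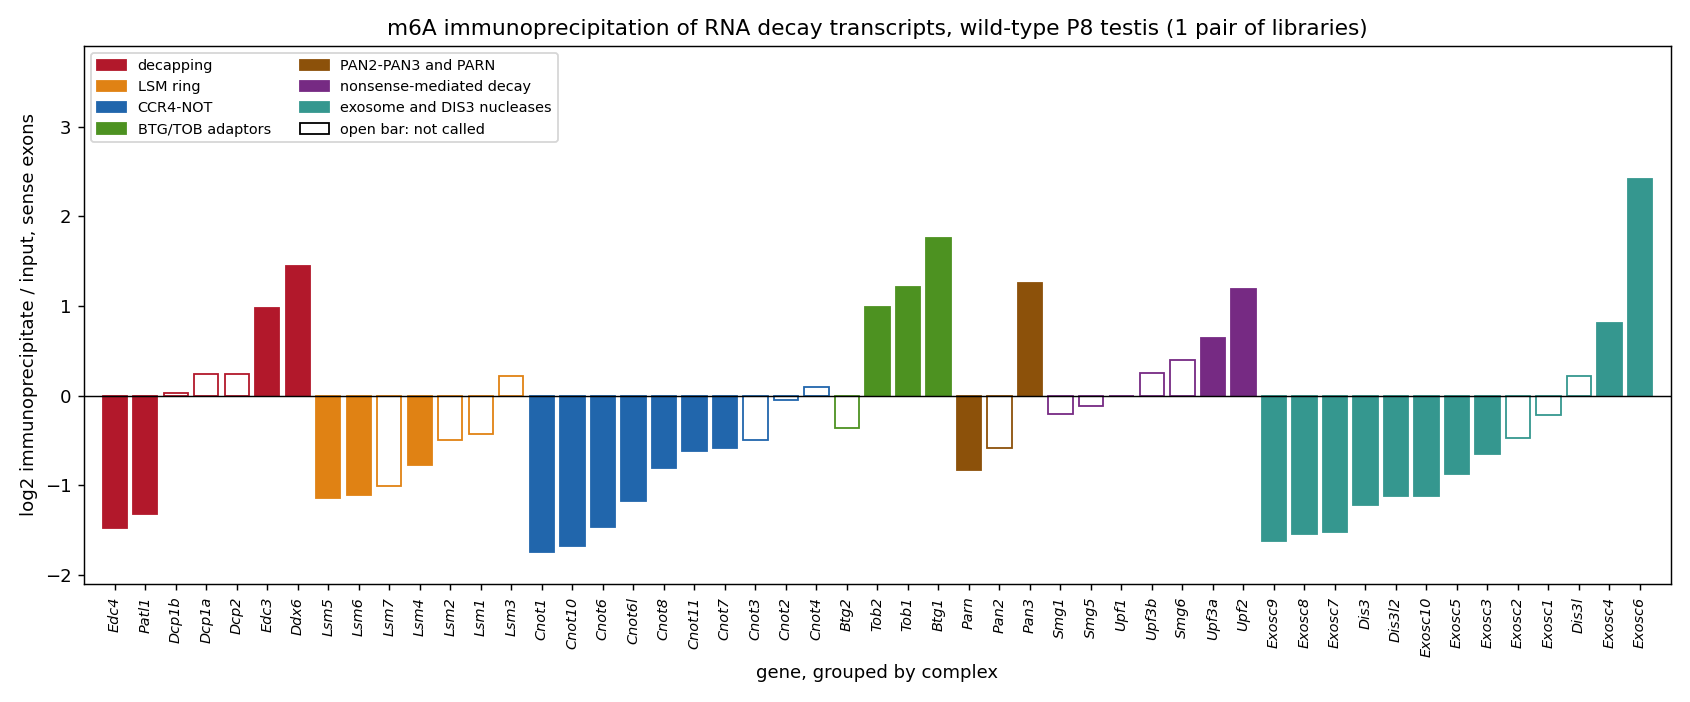
Exon log2 fold of immunoprecipitate over input in wild-type P8 testis for each of the 51 decay genes (x axis, grouped and coloured by complex and ordered by fold within it), from the authors' deposited table of 1 pair of libraries. Filled bars were called at an adjusted p below 0.05 and open bars were not. CCR4-NOT runs from -1.74 for Cnot1 to 0.10 for Cnot4, and Exosc6 is highest at 2.42.

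Of the member introns, 43 had an adjusted p in the m6A comparison. Of these 2 were called, both lower, beside 5.76% of all genes called higher and 3.11% lower. They were Cnot7 at -0.99 and Cnot2 at -0.93, both of CCR4-NOT, and the exons of Cnot2 stood at -0.04. For Lsm3, Lsm5, Tob1, Tob2, Btg2, Exosc3 and Exosc4 the authors list no adjusted p. Exon and intron m6A folds of the members had a Pearson r of 0.07 (n = 49 genes), beside 0.21 over all genes.

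The knockout folds of the members can be set beside their m6A classes. The 10 members called higher in the immunoprecipitate had a median fold of -0.01 at P12, between -0.17 and 0.18, and of -0.04 in the ovary, between -0.12 and 0.13. The 21 called lower had medians of -0.02 and 0.02, between -0.22 and 0.17 and between -0.21 and 0.14. None of these 31 was called in any knockout comparison by the authors' DESeq2 adjusted p. Over all genes of the same m6A classes, 0.764% of those higher and 1.12% of those lower were called lower at P12. In the ovary the shares were 0.249% and 0.692%, and against the wild type at P8 they were 0% and 0.0243%. Against the wild type at P8 the medians were 0.08 and 0.01. The 20 members not called in the m6A table had a median fold of -0.10 at P12, with 15 below 0, and of -0.06 in the ovary, with 16 below 0. Over all genes of that class the medians were 0.00 and 0.01. Dcp2, called at P12, was among these 20. Across the 51 members the m6A fold and the P12 fold had a Pearson r of -0.01 and a Spearman rho of -0.07 (n = 51 genes), and with the ovary fold -0.04 and -0.10. A p that misses the threshold does not show that a transcript was unchanged.

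**Figure D4:**
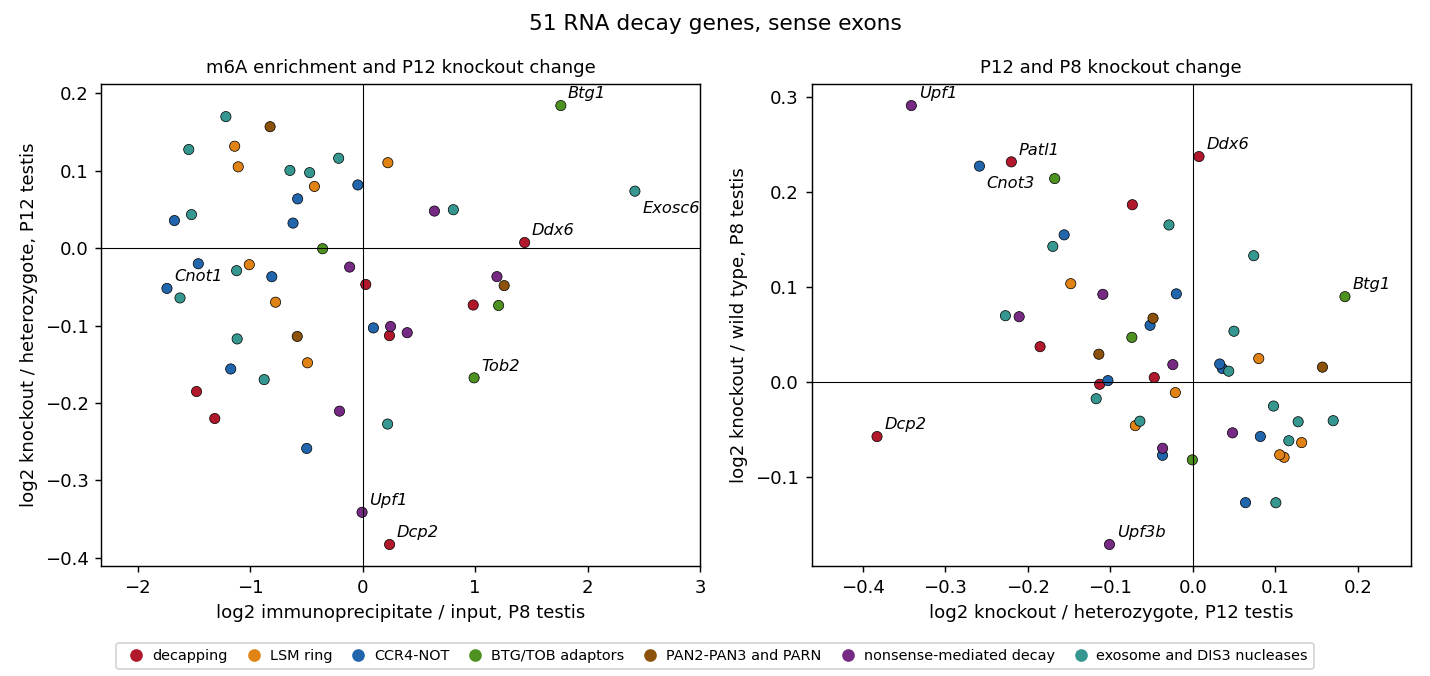
Left, the P12 knockout fold (y axis, log2) against the P8 m6A fold (x axis, log2) of the 51 decay genes. Right, the P8 fold against the wild type (y axis, log2) against the P12 fold (x axis, log2). Points are genes coloured by complex. On the left there is no slope (r = -0.01), and on the right points run from Upf1 at upper left downward (r = -0.46).

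The other genes of the pathways were taken from 5 lists of 68 genes in all. At P12 1 of 67 tested was called, Samd4b, a homologue of the RNA-binding repressor Smaug, which fell by 0.48 (DESeq2 adjusted p = 0.00557), beside 0.756% of all genes called lower. Its introns stood at -0.36, and that fold was not called. In the ovary 3 of 66 tested were called in the authors' deposited table, all lower, beside 0.435% of all genes called lower. Cpeb1, which regulates poly(A) tails in oocytes, fell by 1.37 (DESeq2 adjusted p = 1.22e-12), and its introns fell by 0.67. Lsm14b, a decapping cofactor, fell by 0.65, and Btg4, an adaptor of CCR4-NOT known from oocytes, fell by 0.46 at a mean count of 19.4. Oocyte markers fell in the same libraries, and their part in these 3 was not tested. At P8 0 of 68 were called. The median fold over the 68 was -0.03 at P12, -0.05 in the ovary and 0.06 against the wild type at P8.

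In the m6A immunoprecipitation 24 of these 68 genes were called higher and 23 lower than in the input, beside 26.9% and 26.3% of all genes. Recruiters of deadenylation, the RNA-binding proteins that bring CCR4-NOT to chosen mRNAs, had 11 of 22 higher and 7 lower. Among them Zfp36, Zfp36l2 and Tnrc6c stood at 1.79, 1.60 and 1.55 in the deposited table, and Ago3 and Pum2 at -1.81 and -1.39. Other decapping and 5′-to-3′ decay genes had 2 of 12 higher and 6 lower. Xrn1, the exonuclease that YTHDC2 binds, was lower in the immunoprecipitate at -1.04, and its exon folds were -0.00 at P12, 0.01 in the ovary and 0.07 against the wild type at P8. Other deadenylation genes had 4 of 11 higher and 2 lower, including Pabpc1 at -1.50. Other nonsense-mediated decay genes had 2 of 10 higher and 3 lower, and exosome cofactors 5 of 13 higher and 5 lower. Ythdc2 itself stood at -1.995.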

How the data were processed

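Groups were taken from the labels. The authors deposited tables of their own comparisons, which per the file headers give each feature a mean normalized count (that is, 1 signal for the whole table, not for each library), a log2 fold change and an adjusted p-value. DESeq2 and the mm10 genome are named in the submitters' processing notes, and no source used here gives versions, aligner, counting or annotation. The deposited folds appear drawn toward 0 and each table was normalized separately, so sizes are not strictly comparable across tables. Without values for single libraries, no model was fitted, and calls rest on the adjusted p-value of the authors over all features. In the m6A table each age's columns were sorted by adjusted p separately, and only the P8 columns were matched to gene names. The Bind-N-Seq table, with 8 columns of values per library, was not used.

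Members and pathway lists were chosen with earlier results of these data known. Named were all members called anywhere, the highest and lowest of each complex in the main comparisons (P12, ovary, P8 against wild type, m6A), and pathway genes only where called. A few further members, and the examples among the pathway genes called in the m6A table, were picked after their values were seen. Shares called and medians over all genes (mean count of at least 10) stand beside those of the members. Positions and spans came from RefSeq (GRCm38). Alternatives were thresholds of 0.01 and 0.1, mean counts of at least 50, no minimum and centring on all genes. Centring and the background within the members' count range, and the fold rule for m6A, were added after the data were seen. Counting of calls was tested on simulated data. Python 3.11.15, pandas 2.3.3, scipy 1.17.1 and matplotlib 3.10.9 were used.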

Additional observations from a re-analysis of the deposited data

How the results depend on the processing

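No paired analysis was possible because the deposited tables hold no values per library, and for the same reason no library could be left out and no interaction could be tested. Of the alternatives run on counts and medians of the members, 132 left the value on the same side or within 1.5 times (medians within 0.05), and 9 did not. Many of the 132 could not have moved, since a count of 0 calls stays 0 at a stricter threshold or a higher minimum count. The tally is therefore not a measure of robustness. At an adjusted p below 0.01 the members called at P12 went from 1 to 0, and those called lower from 1 to 0, since Dcp2 was lost. In introns of the m6A table the 2 calls, both lower, went to 0 at an adjusted p below 0.01, and at 0.1 there were 4, 1 of them higher. The m6A median fold was -0.40 after centring on genes in the members' count range, and the median exon minus intron m6A difference was -0.31 at mean counts of at least 50, against -0.14, with fewer genes left. Past a log2 fold of 1, 6 members were higher in the immunoprecipitate in place of 10. Among single genes, the m6A calls of Exosc3, Lsm5 and Upf3a did not pass 0.01. Centring on all genes could not turn a call, since it leaves the adjusted p as it is and its shift was small beside the called folds. Depth limits Lsm5, the lowest member in the ovary with a mean count of 20.7, and the single pair of m6A libraries gives no replicate check.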

Other observations

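Mean counts of some decay genes differed widely between the m6A table, whose mean runs over immunoprecipitates and inputs of all ages, and the P8 total RNA table. Dis3l had a mean count of 4258 in the m6A table and 376 in the P8 total RNA table, 3.50 higher on the log2 scale, and 3.12% of 15167 genes lay at or above that value. Tob1 came next among the 51 members at 2.27, and Lsm7 was lowest at -1.83, around a median of -0.08. The libraries differ in age, immunoprecipitation, RNA selection and kit, and the part of each was not tested.

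Outside the members, introns of Patl2, a germline relative of Patl1, fell by 0.64 at P12 (DESeq2 adjusted p = 0.0155) in the authors' deposited table, beside exons at -0.18, which were not called. In introns of the m6A table Tnrc6c, a scaffold of microRNA silencing, was higher in the immunoprecipitate at 1.90, beside 1.55 in exons.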
